A study of Mus musculus with 12 samples.

Results

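Intergenic BRG1 regions away from promoters numbered 445 of the 3473 distinct regions (12.8%) listed for wild-type cardiac precursors (CPs). They were chosen by position: a listed region narrower than 1000 bp that touched neither the 1 kb on either side of an annotated transcription start site (TSS) nor the body of any gene in GENCODE release M1, on mouse build mm9. Because the list is itself the outcome of peak calling, the number of regions and their place outside genes are a description and carry no test. The list had 4791 rows, some of which repeat the same region. The row count equals the count of sites that the study gives for CPs. The count of distinct regions equals the count of sites that it gives for cardiomyocytes (CMs). Whether the list also holds CM sites was not settled, and the regions are called CP regions after the label of the list.

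The series measured where the BRG1 protein sits on chromatin by ChIPseq in 12 libraries from mouse embryonic stem cells differentiated towards the heart. The list used here comes from wild-type CPs of the W4/129S6 strain at passage 15-20, with 2 BRG1 libraries and 1 input library. The cells had formed embryoid bodies with VEGF, Activin and BMP4 and were then grown as monolayers with FGFs. Chromatin was fixed with a protein crosslinker and formaldehyde, cut with MNase to mono- and di-nucleosomes and precipitated with an anti-BRG1 antibody. The list gives positions with no height, so that regions cannot be ranked by strength, library depth is unknown, and a place that is not listed may be unbound or below the calling threshold. Positions hold no marker levels against which to check the cell type.

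BRG1 is an ATPase of the BAF complexes, which use the energy of ATP to move or evict nucleosomes. BAF complexes act at promoters and at enhancers, stretches of DNA that can lie far from the gene they regulate and that hold binding sites for transcription factors. In CPs the factors at work include GATA4, TBX5, NKX2-5, MEIS, TEAD and HAND proteins, each of which recognises a short DNA word. CpG islands, by contrast, are GC-rich stretches that keep many CpG dinucleotides and that usually mark promoters.

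The sequences of regions beside cardiac genes show the words that the counts below refer to. Each is the plus strand of mm9, 5′ to 3′, and the capitals mark the GATA words AGATAA and CTTATC, the MEIS word TGACAG, the TEAD word GGAATG and the T-box word AGGTGTGA on either strand. Regions beside a listed cardiac transcription factor gene come ahead of those with the most GATA words, and those beside Tnnt2 and Myl2 were added after their values were seen.
Tbx5 upstream, chr5:120246546-120246785: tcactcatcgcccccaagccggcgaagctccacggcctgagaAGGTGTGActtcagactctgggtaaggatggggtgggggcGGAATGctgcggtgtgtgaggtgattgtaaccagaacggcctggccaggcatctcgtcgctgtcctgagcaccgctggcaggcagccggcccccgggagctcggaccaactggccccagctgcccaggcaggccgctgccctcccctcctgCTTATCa
Tbx5 downstream, chr5:120346926-120347225: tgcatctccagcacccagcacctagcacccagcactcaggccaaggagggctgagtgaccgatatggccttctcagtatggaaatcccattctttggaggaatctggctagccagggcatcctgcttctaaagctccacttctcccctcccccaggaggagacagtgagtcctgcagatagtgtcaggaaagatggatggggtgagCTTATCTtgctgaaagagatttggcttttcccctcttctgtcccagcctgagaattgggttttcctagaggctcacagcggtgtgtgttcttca
Gata5 upstream, chr2:180089706-180089845: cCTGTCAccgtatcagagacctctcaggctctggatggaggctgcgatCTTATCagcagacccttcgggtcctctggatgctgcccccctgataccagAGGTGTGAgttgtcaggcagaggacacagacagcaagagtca
Gata4 upstream, chr14:63987966-63988045: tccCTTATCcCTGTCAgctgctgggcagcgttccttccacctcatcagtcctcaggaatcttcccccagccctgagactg
Tbx20 upstream, chr9:24778706-24778905: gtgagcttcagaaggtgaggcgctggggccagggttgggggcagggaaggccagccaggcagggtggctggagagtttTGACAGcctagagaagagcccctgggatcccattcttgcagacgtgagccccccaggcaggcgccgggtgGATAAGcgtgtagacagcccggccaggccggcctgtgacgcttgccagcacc
Bmp5 upstream, chr9:75616906-75617165: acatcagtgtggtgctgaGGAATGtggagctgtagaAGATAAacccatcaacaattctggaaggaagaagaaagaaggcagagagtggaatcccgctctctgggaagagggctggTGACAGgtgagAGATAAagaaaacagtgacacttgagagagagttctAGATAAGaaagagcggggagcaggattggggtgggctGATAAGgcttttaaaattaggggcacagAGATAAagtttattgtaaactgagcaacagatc
Plekha6 side, chr1:135141326-135141485: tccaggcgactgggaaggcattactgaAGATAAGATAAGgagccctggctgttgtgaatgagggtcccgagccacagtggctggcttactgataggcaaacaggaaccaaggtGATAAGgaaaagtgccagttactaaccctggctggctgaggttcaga
Tnnt2 upstream, chr1:137732646-137732765: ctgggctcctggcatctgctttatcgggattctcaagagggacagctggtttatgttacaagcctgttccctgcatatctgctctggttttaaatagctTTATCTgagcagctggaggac
Myl2 upstream, chr5:122544606-122544845: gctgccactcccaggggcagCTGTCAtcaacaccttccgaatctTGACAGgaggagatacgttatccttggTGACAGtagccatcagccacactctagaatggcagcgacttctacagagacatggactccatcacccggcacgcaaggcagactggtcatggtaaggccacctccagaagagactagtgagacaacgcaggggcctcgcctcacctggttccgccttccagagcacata

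The region between Tbx3 and Tbx5 held a GATA word, a TEAD word and a T-box word. A GATA word and a MEIS word lay 1 base apart in the 80-bp region upstream of Gata4, and the Gata5 region held both words and a T-box word. The Bmp5 region held 5 GATA cores, more than any other of the 445 regions. A core here is the GATA within AGATAA or GATAAG, counted once. The other region beside Gata4, chr14:63978306-63978525, held none of these words.

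A different kind of sequence is shown by the region chr7:38846226-38846485 between C80913 and Ccne1, in which capitals mark CpG dinucleotides. It had a GC content of 72.7%, and it spanned the start of a RefSeq transcript, Gm30684, that GENCODE M1 does not hold there.
CpG-rich example, chr7:38846226-38846485: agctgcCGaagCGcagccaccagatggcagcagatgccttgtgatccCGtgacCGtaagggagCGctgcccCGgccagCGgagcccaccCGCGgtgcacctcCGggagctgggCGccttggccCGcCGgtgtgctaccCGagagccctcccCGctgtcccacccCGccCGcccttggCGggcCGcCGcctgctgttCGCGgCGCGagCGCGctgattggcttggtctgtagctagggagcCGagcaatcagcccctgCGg

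By width, the median region spanned 200 bp, the quartiles being 140 and 440 bp, and the narrowest spanned 40 bp and the widest 980 bp. They covered 137.72 kb in all. In the list, 407 of them stood on 1 row and 38 on more than 1 row, up to 4. The width limit left out 35 intergenic regions, the narrowest of 1020 bp and with a median of 1200 bp. Near that limit, 22 members spanned 900 bp or more and 12 regions left out spanned 1000 to 1100 bp. At the other limit, the member closest to a TSS had its edge 1032 bp away, and 16 members had an edge within 1500 bp. The promoter region farthest from a TSS had its edge at 993 bp, and 68 promoter regions lay 500 to 1000 bp away. By chromosome, the regions ranged from 3 on X to 43 on chromosome 1, and per Mb from 0.018 on X to 0.336 on chromosome 11.

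The intergenic regions lay closer to TSSs than intergenic DNA does in general. From the midpoint of a region to the nearest TSS of any gene, the median distance was 25.8 kb, with quartiles of 9.24 and 62.4 kb and a range of 1.12 to 667 kb. Of the 445 regions, 313 (70.3%, Wilson 95% interval 65.9 to 74.4%) lay within 50 kb of a TSS. Of the 1474 Mb of intergenic bases on chromosomes 1 to 19 and X that met the same rule on genes and promoters, 51.2% lay within that distance (p = 3.31e-16, exact binomial test, two-sided). The share was also higher within 20 kb, at 42.2% against 29.99% (p = 4.65e-08), and within 100 kb, at 85.4% against 68.7% (p = 6.41e-16, exact binomial tests). These intervals and p-values treat regions as independent and cover counting error only. The intergenic bases were not limited to those to which reads can be aligned, and the part of this in the difference was not tested.

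**Figure D1:**
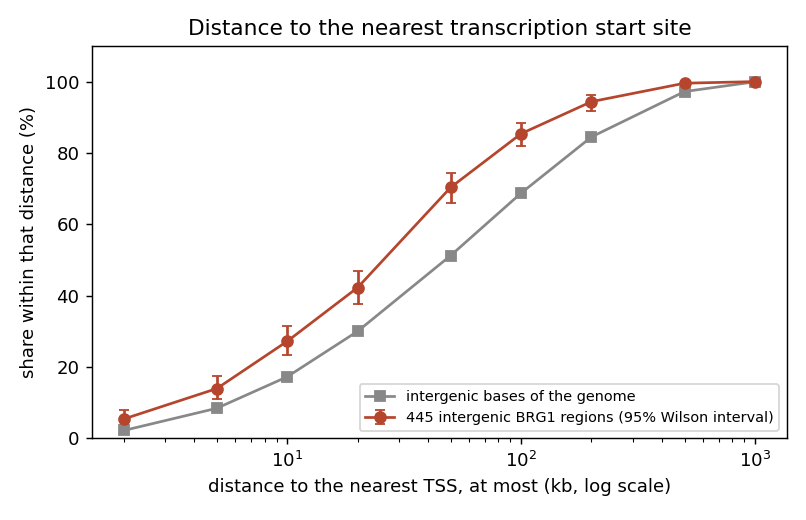
Share of the 445 intergenic BRG1 regions (red, bars are 95% Wilson intervals) and of intergenic bases (grey) that lie within a given distance of the nearest TSS, on a log axis in kb. The red curve is above the grey curve from 2 kb, where 5.39% of regions and 2.18% of bases are found, to 500 kb, and the gap is widest among the plotted distances at 50 kb.

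When protein-coding genes alone were used, the median distance to a TSS was 40.1 kb and 241 regions (54.2%) lay within 50 kb, against 35.4% of intergenic bases (p = 9.66e-16, exact binomial test). The nearest protein-coding gene was transcribed away from the region in 277 cases (62.2%, Wilson interval 57.7 to 66.6%), which places the region upstream of it. The rule leaves out gene bodies, so that the space just downstream of a TSS could not hold a member. A protein-coding TSS lay within 100 kb on both sides of 173 regions (38.9%), on 1 side of 152 (34.2%) and on neither side of 120 (27.0%). The gap between the flanking protein-coding TSSs had a median of 184 kb over the 443 regions that had one on both sides, and ranged from 6.58 to 3303 kb.

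The regions were divided into 2 kinds by base composition. CpG-island-like sequence, here a GC content of at least 50% with at least 0.6 of the CpG expected from the base content, made up 140 of the 445 regions (31.5%, Wilson interval 27.3 to 35.9%). Sequence of the same width 5 kb to the right was CpG-island-like in 9 of 445 cases (2.02%). In 135 cases the region alone met the definition and in 4 cases its neighbour alone (p = 4.40e-35, exact McNemar test, two-sided). The 140 CpG-island-like regions had a median GC content of 73.2% and a median CpG ratio of 0.854. The other 305 regions had a median GC content of 52.3%, where their right-hand neighbours had 45.0%, and a median CpG ratio of 0.185 beside 0.161. Median width was 220 bp in the CpG-island-like regions and 180 bp in the others. The definition set no minimum length. The lower quartile of width in the CpG-island-like regions was 140 bp, and regions as narrow as 40 bp met it. In short regions a few CpGs decide the ratio.

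**Figure D2:**
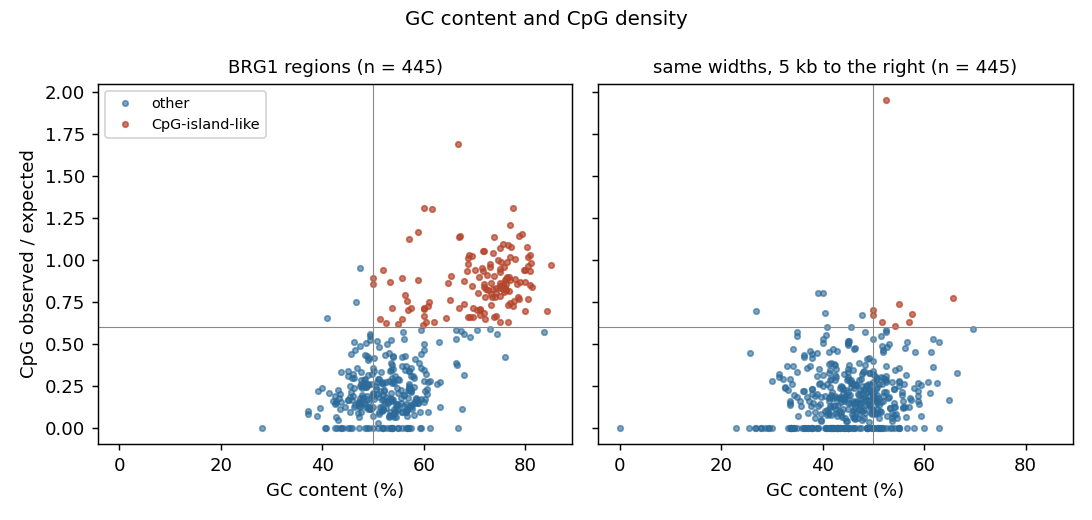
GC content in % against the ratio of observed to expected CpG, for the 445 regions (left) and for sequence of the same widths 5 kb to the right (right). Grey lines are the limits of 50% and 0.6. The 140 CpG-island-like regions (red) have a median GC content of 73.2% in the left panel, and some lie near the 50% limit, within the GC range of the others. In the right panel 9 points are red, and the point at 0 is a control of undetermined bases.

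CpG-island-like sequence was also more frequent in intergenic than in intronic regions. Among the 351 regions narrower than 1000 bp that lay in introns and away from promoters and exons, 59 (16.8%, Wilson interval 13.3 to 21.1%) were CpG-island-like (odds ratio 2.27, p = 2.31e-06, Fisher's exact test, two-sided). Among the 2248 promoter regions of the same width range, 2132 (94.8%) were.

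Some of these regions lay at gene starts that the GENCODE M1 rule could not see. The 60 bases around each TSS in RefSeq's later mouse annotation, of build GRCm38.p6, were searched for on mm9 by exact sequence, an analysis added after the data were seen. A RefSeq TSS lay within 1 kb of 47 of the 445 regions (10.6%) and inside 18 of them. The same search placed a RefSeq TSS within 1 kb of 18 of the 351 intronic regions (5.13%) and of 1719 of the 2248 promoter regions (76.5%). Of the CpG-island-like regions 34 of 140 (24.3%, Wilson interval 17.9 to 32.0%) were so placed, and of the others 13 of 305 (4.26%, 2.51 to 7.15%). The CpG-island-like regions were also nearer to the TSSs of GENCODE M1, with a median of 14.8 kb beside 32.2 kb.

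Among the genes whose RefSeq start lay within a region were Il6st, the shared receptor subunit for cytokines of the interleukin 6 family, Papss2, which encodes an enzyme that makes the cell's sulphate donor, and Fgf12, a member of the fibroblast growth factor family. The start of Dpf3, which encodes the BAF subunit BAF45c, was 341 bp from the region chr12:84828086-84828345, although its nearest GENCODE M1 TSS was 376 kb away. The start of Tnnt2, the cardiac troponin T gene of the thin filament, was 146 bp from the region printed above, and its TSS in GENCODE M1 was 4.75 kb away. That region is not CpG-island-like, with a GC content of 48.3%, and holds a GATA word. The RefSeq gene E130101E03Rik started 54 bp from the Tbx20 region.

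Of 24 motif words and patterns examined over all 445 regions, 6 differed from the sequence 5 kb to the right, 5 of them being more frequent in the regions. The test was an exact McNemar test with Benjamini-Hochberg adjustment over the list. Of all 2080 words of 6 bp in the same comparison, 399 (19.2%) were called more frequent and 525 (25.2%) less frequent. Passing is therefore not particular to the motif words. The SP word GGGCGG was in 28.1% of regions and in 4.94% of neighbours (adjusted p = 2.31e-21, exact McNemar test). The MEIS word TGACAG was in 157 regions (35.3%) and in 87 neighbours (19.6%), with 121 regions alone and 51 neighbours alone (adjusted p = 1.16e-06, exact McNemar test). The TEAD word GGAATG was in 116 regions (26.1%) and in 62 neighbours (13.9%, adjusted p = 5.45e-05, exact McNemar test). The GATA word AGATAA was in 115 regions (25.8%) and in 68 neighbours (15.3%, adjusted p = 0.000448), and the longer TGATAAG was in 37 (8.31%) and in 14 (3.15%, adjusted p = 0.00561, exact McNemar tests). The NFY word CCAAT was less frequent, at 20.2% beside 31.5% (adjusted p = 0.000368, exact McNemar test).

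The other 18 motifs did not pass. The T-box word AGGTGTGA was in 11 regions (2.47%) and 8 neighbours (1.80%, p = 0.629, exact McNemar test), and 2 of the 11 lay beside listed cardiac transcription factor genes, those of Gata5 and of Tbx3 and Tbx5 printed above. The shorter GGTGTG was in 21.8 and 21.4%. The NKX2-5 word CACTTGA was in 2.70% of regions and 3.82% of neighbours, and the HAND word CATCTG in 21.8 and 25.4%. The AP-1 word TGANTCA was in 8.09 and 9.44%, the MEF2 pattern in 1.80 and 4.49% and the SRF CArG pattern in 1.80 and 1.12%. The CTCF core was in 4 regions (0.899%) and in 0 of 445 right-hand neighbours, which allows a share of up to 0.674% (p = 0.125, exact McNemar test). In the sequence 5 kb to the left the core was found in 3 cases (0.674%). The bare letters GATA were in 56.0% of regions and 60.9% of right-hand neighbours, and these did not differ beyond counting error (p = 0.121, exact McNemar test). On the left-hand side they were in 291 cases (65.4%), above the Wilson interval of the regions (51.3 to 60.5%), a comparison that was not tested.

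Word content divided along the same line as base composition. This split was made after the data were seen, so that the shares for each kind are given with no test. In the 305 regions that were not CpG-island-like, TGACAG was in 144 (47.2%) and in 64 of their neighbours (21.0%). AGATAA was in 111 (36.4%) and in 47 neighbours (15.4%), and GGAATG in 98 (32.1%) and in 45 neighbours (14.8%). The bare GATA was in 72.1% of these regions and in 63.6% of their neighbours. In the 140 CpG-island-like regions the order was the opposite for AGATAA, found in 4 regions (2.86%) and in 21 neighbours (15.0%). There TGACAG was in 13 (9.29%) beside 23 (16.4%), and GGAATG was about level, in 18 (12.9%) beside 17 (12.1%). GGGCGG was in 89 of them (63.6%) beside 8 neighbours (5.71%), and in 36 (11.8%) of the others beside 14 (4.59%).

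**Figure D3:**
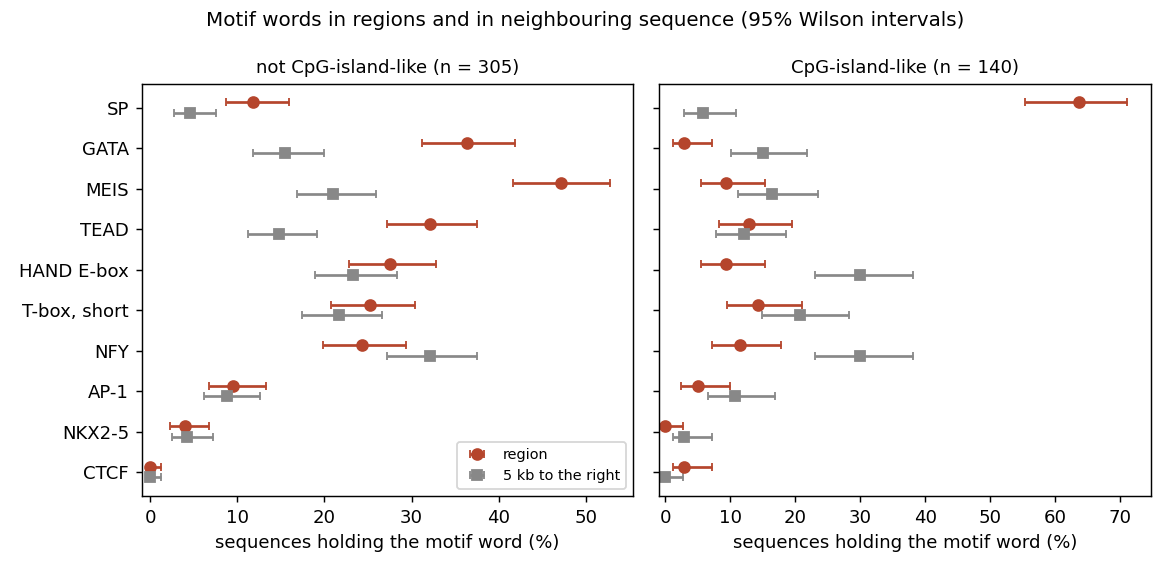
Share of regions (red circles) and of sequence 5 kb to the right (grey squares) that hold each of 10 motif words, in %, with 95% Wilson intervals, for the 305 regions that are not CpG-island-like (left) and the 140 that are (right). GATA, MEIS and TEAD words stand to the right of their controls in the left panel, at 36.4, 47.2 and 32.1%, and the SP word does so most widely in the right panel, at 63.6%.

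The 3 kinds of word shared regions about as often as their separate shares give. Among the 305 regions that were not CpG-island-like, 247 (81.0%) held a GATA word (AGATAA or CTTATC), a MEIS word or a TEAD word, and 109 (35.7%) held words of at least 2 kinds. Their right-hand neighbours held any of them in 137 cases (44.9%) and at least 2 kinds in 30 (9.84%). GATA and MEIS words were together in 63 regions and in 12 neighbours, and all 3 kinds in 21 regions and in 3 neighbours. The product of the separate shares in the regions gives 63.7 for GATA with MEIS and 20.5 for all 3 kinds. In 58 of these regions (305 in all) none of the words was found. A GATA core was present once in 89, in 2 copies in 37, in 3 copies in 8 and in 5 copies in 1 of them.

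The words gathered near the midpoint of the regions. Within 100 bp of the midpoint of the 305 regions, GATA words occurred at 2.30 per kb, beside 0.921 per kb at 500 to 1000 bp. MEIS words went from 2.62 to 0.905 per kb and TEAD words from 1.56 to 0.636 per kb over the same distances. In the CpG-island-like regions the GATA words occurred at 0.50 per kb near the midpoint and 0.529 per kb farther out.

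**Figure D4:**
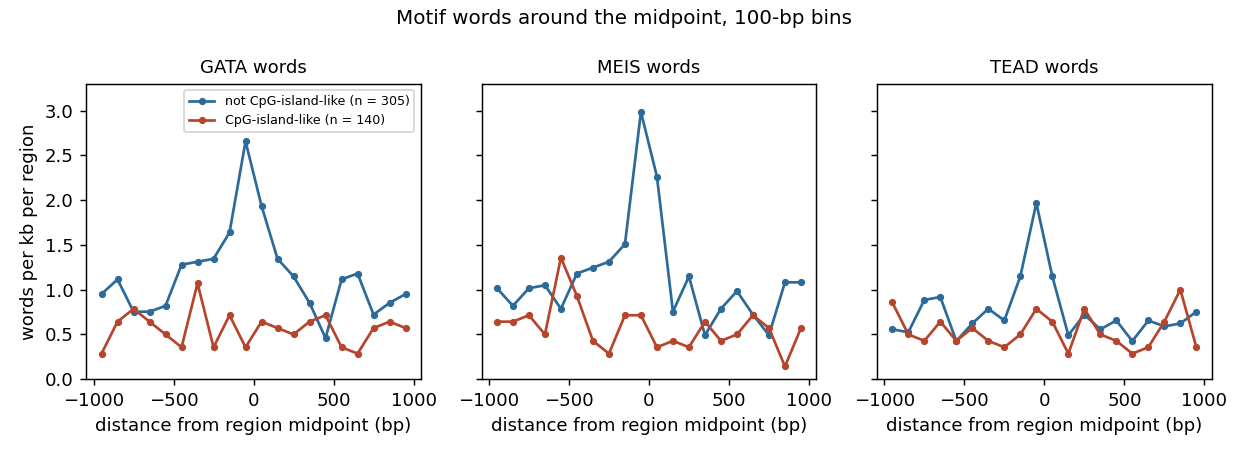
GATA, MEIS and TEAD words per kb of sequence and region, in 100-bp bins up to 1000 bp either side of the midpoint, for the 305 regions that are not CpG-island-like (blue) and the 140 that are (red). The blue lines peak at the midpoint, at 2.66, 2.98 and 1.97 words per kb in the bin just left of it, and the red lines have no such peak.

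Across all 2080 words of 6 bp, 399 were more frequent in the 445 regions than in the sequence 5 kb to the right (19.2%) and 525 less frequent (25.2%, exact McNemar tests with Benjamini-Hochberg adjustment). Of the 399, 278 contained CpG, so that this count reads base composition as much as motifs, and the called share is the background against which a motif word has to be read. Among words more frequent in the 445 regions, ordered by p-value of that test, CTTATC was number 115 and the MEIS word number 140. The TEAD word was number 199 and AGATAA number 238. Over the 305 regions that were not CpG-island-like, the differences in share are given with no test. The greatest was that of the MEIS word, read on its other strand as CTGTCA, in 47.2% of regions beside 21.0% of neighbours. The GATA word CTTATC followed, in 98 regions (32.1%) and 26 neighbours (8.52%), then CCAGGC, in 42.6% beside 20.3%, and then AGATAA. Further down the order the E-box word CAGCTG was in 32.8% beside 14.8%. The greatest differences in the other direction were those of A and T runs such as AATAAA, at 11.8% beside 30.2%. At 8 bp, the greatest excess over the mean of both neighbours was that of CCCCTCCC, in 40 regions, in 16 right-hand and in 12 left-hand neighbours. It was followed by CAGATAAG, in 26, 2 and 2, and further down by CTCCCTCC, in 30, 7 and 12, level with CTGTCACC, in 25, 4 and 5.

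Intergenic and intronic regions did not differ detectably in the GATA word AGATAA. In 300-bp windows on the midpoint, AGATAA was in 123 of 445 intergenic (27.6%, Wilson interval 23.7 to 32.0%) and 91 of 351 intronic windows (25.9%, 21.6 to 30.8%), with an odds ratio of 1.09 (p = 0.629, Fisher's exact test, two-sided). The CTCF core was in 4 intergenic windows and in 0 of 351 intronic windows, which allows a share of up to 0.855% (p = 0.135, Fisher's exact test). In the promoter windows AGATAA was in 61 of 2248 (2.71%), TGACAG in 10.01% and GGGCGG in 78.5%. TGACAG was in 35.1% of intergenic and in 44.7% of intronic windows, a difference that did not pass after Benjamini-Hochberg adjustment over the words compared (adjusted p = 0.124, Fisher's exact test). The bare letters GATA were likewise less frequent in intergenic windows, at 63.6% beside 71.5%, and did not pass (adjusted p = 0.124, Fisher's exact test).

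The regions were flanked by 758 of 22208 protein-coding genes (3.41%), counting the nearest protein-coding TSS on either side of a region within 1 Mb. Genes with much intergenic space around them had more room to flank a region. The distance between the TSSs of the neighbouring genes on either side had a median of 73.5 kb over all protein-coding genes and of 272 kb over the 758, and its part in the counts of listed genes was not tested. For that reason each list is given with the share of intergenic bases that its genes flank in the same way. This share covers all genes of the list, whether or not they flank a region. The lists were chosen with earlier results of these data known. Their shares and intervals are therefore a description and carry no test.

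Genes of the BMP, FGF, Wnt, Notch and retinoic acid signalling list were among the flanking genes in 15 of 42 cases (35.7%), beside 3.41% of all protein-coding genes. The 15 genes flanked 18 of the 445 regions (4.04%, Wilson interval 2.57 to 6.30%), and the whole list of 42 flanked 0.852% of intergenic bases. The ligand genes were Bmp2, Bmp4, Bmp5, Bmp7, Fgf9, Wnt11 and Jag1, and Bmp5 had its region 6.14 kb upstream of the gene. The region beside Bmp4, chr14:47281566-47282125, lay 272 kb upstream and held 2 GATA cores and 2 MEIS words. Receptors were represented by Fgfr1 and Fzd7, the latter with 2 regions 72.7 and 117 kb upstream of the gene. Antagonists and inhibitors were Nog, Dkk1, Smad6 and Smad7, the last with 2 regions 24.5 and 47.9 kb upstream, of which the nearer was CpG-island-like. Lef1, a transcription factor of the Wnt pathway, had 2 regions 20.9 and 231 kb upstream, and Hes1, a target of Notch signalling, had a CpG-island-like region 6.12 kb downstream of its start.

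Of 30 listed cardiac transcription factor genes, 6 (20.0%) flanked a region: Tbx3, Tbx5, Tbx20, Gata4, Gata5 and Meis1. The 6 genes flanked 9 regions (2.02%, Wilson interval 1.07 to 3.80%), and the whole list of 30 flanked 0.827% of intergenic bases. Tbx5, a T-box factor of the atria, left ventricle and forelimb, was flanked by 4 regions, at 91.8 and 38.0 kb upstream of its start and 62.4 and 253 kb downstream. Each of the 4 held at least 1 GATA core and none was CpG-island-like. The upstream regions also lay downstream of Tbx3, a T-box factor of the conduction system, at 72.2 and 126 kb from its start. Gata4, which encodes a zinc finger factor of cardiac precursors, had regions 87.9 and 97.5 kb upstream. Gata5, its close relative, had a region 20.4 kb upstream. The Tbx20 region lay 200.1 kb upstream, and the Meis1 region lay 901 kb upstream, was CpG-island-like and was 3.97 kb from the TSS of Spred2. Of the 9 regions, 4 had the listed gene as their nearest protein-coding gene. Both Gata4 regions were nearer to the TSS of Blk, at 57.6 and 48.0 kb. The region 253 kb downstream of the Tbx5 start was nearer to the TSS of Rbm19, at 29.3 kb. Of the 18 regions beside signalling genes, the listed gene was the nearest for 8.

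**Figure D5:**
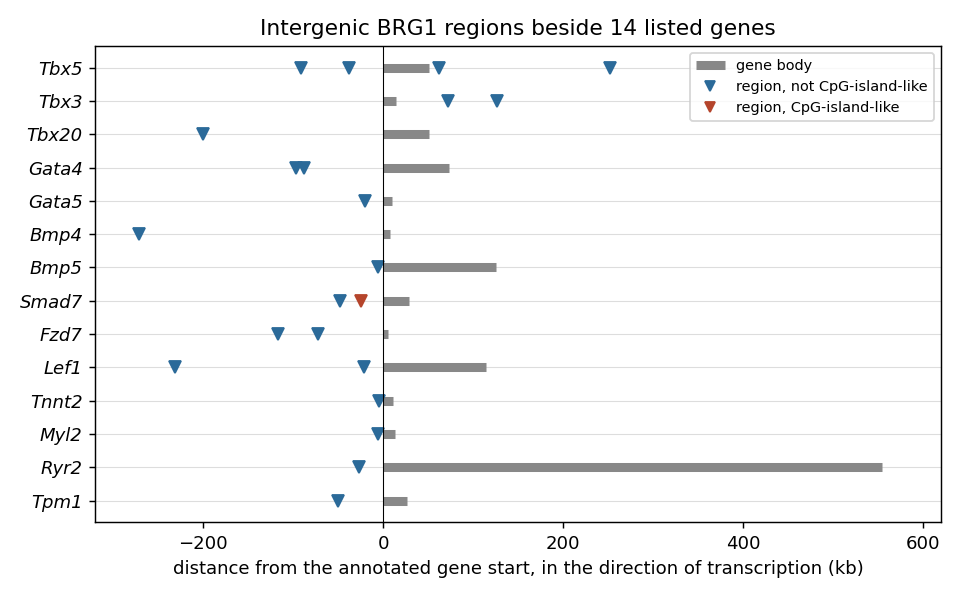
Positions of intergenic BRG1 regions (triangles) along the direction of transcription, in kb from the annotated start of 14 listed genes, with each gene body as a grey bar. Tbx5 has 4 regions between 91.8 kb upstream and 253 kb downstream, and of the regions drawn, the one 24.5 kb upstream of Smad7 is CpG-island-like (red).

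Sarcomere and contraction genes flanked regions in 6 of 36 cases (16.7%). Tnnt2 had its region 4.75 kb and Myl2, the ventricular regulatory light chain gene, 6.23 kb upstream of the annotated start. The Myl2 region held 3 MEIS words and no GATA core. A region 26.6 kb upstream of Ryr2, the calcium release channel gene, held 1 GATA core and 3 MEIS words, and one 50.1 kb upstream of Tpm1, a tropomyosin gene, held 1 GATA core. Myl3 and Kcnq1 had CpG-island-like regions 17.97 and 339 kb downstream of their starts. The Kcnq1 region was 15.0 kb from the TSS of Cdkn1c and 297 kb from the nearest TSS of Kcnq1. For the other 5 regions the listed gene was the nearest protein-coding gene. The 6 genes flanked 6 regions (1.35%, Wilson interval 0.619 to 2.91%), and the whole list flanked 0.259% of intergenic bases.

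In lists of other lineages, 0 to 16.7% of the genes flanked a region. Limb and skeletal genes flanked regions in 4 of 40 cases (10%), which were Sox9, Sox6, Osr1 and Msx2, with 1.12% of regions beside 0.654% of intergenic bases. Endothelial and blood genes did so in 2 of 22 cases (9.09%), with Gata2 and Cdh5, and with 0.449% of regions beside 0.258% of intergenic bases. Pluripotency and early mesoderm genes did so in 4 of 24 (16.7%), with Tbx3, Foxa2, Pdgfra and Lhx1, and with 1.12% of regions beside 0.419% of bases. Of the 23 neural genes annotated under the symbols listed, 0 flanked a region, although these genes flank 0.487% of intergenic bases, a share that lies within the counting error of 0 of 445 regions. Of 20 housekeeping genes, 3 (15.0%) flanked a region, Actb and Eef1a1 among them. The 3 genes flanked 4 regions (0.899%, Wilson interval 0.350 to 2.29%) and the list 0.0429% of intergenic bases, the widest ratio of these shares among the lists.

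Among 328 protein-coding genes named for developmental transcription factor families, 45 (13.7%) flanked a region, and 53 regions (11.9%, Wilson interval 9.22 to 15.3%) stood beside 5.41% of intergenic bases. This name rule is loose and also takes in a few relatives by name such as Gatad2b. CpG-island-like regions beside such genes included those near Foxc1, 5.04 kb downstream of its start, Id2, 2.81 kb upstream, and Pax2, 29.8 kb upstream. Irx3, an Iroquois homeobox gene, had regions 85.9 kb downstream and 186 kb upstream that were not CpG-island-like. Hoxb1 had 3 regions 31.7 to 41.8 kb downstream of its start.

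Most stretches between protein-coding genes held a single region. Of 398 stretches with a region, 359 held 1, 32 held 2, 6 held 3 and 1 held 4. The 4 regions lay between Thap1 and Zfp703 on chromosome 8 over 614 kb. The stretches with 3 were those between Arhgef19 and Epha2 (within 4.48 kb), Hoxb1 and Skap1 (10.3 kb), Lekr1 and Ccnl1 (58.3 kb), Mki67 and Mgmt (398 kb), Cd83 and Jarid2 (419 kb) and Camk1g and Plxna2 (1060 kb). Tbx5, Thap1 and Zfp703 were each flanked by 4 regions, 10 further genes by 3, 76 by 2 and 669 by 1. Another intergenic region lay within 10 kb of 14 regions (3.15%), within 50 kb of 39 (8.76%) and within 100 kb of 58 (13.03%).

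At the ends of the distance range, the 5 regions nearest to a TSS lay 1.12 to 1.25 kb from the starts of Lamr1-ps1, 1100001G20Rik, Rfx4, 1700025G04Rik and Abr, and 2 of the 5 were CpG-island-like. The 5 farthest lay 344 to 667 kb from a TSS. The farthest, chr1:76474726-76474885, lay between Slc4a3 and Epha4, 927 kb from the nearest protein-coding TSS, and held 1 GATA core. The region chr1:195852306-195852905 between Camk1g and Plxna2 held 2 GATA cores and 2 MEIS words. Also among the farthest, chr8:130526426-130526565 held 1 GATA core, and the CpG-island-like chr7:78850566-78850605 lay 358 bp from the RefSeq start of Gm44689.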

How the data were processed

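BRG1 ChIPseq was measured in 12 libraries. The list of wild-type CPs, which rests on 2 BRG1 libraries and 1 input library, was analysed, and the other 9 libraries were left aside. Before deposit the authors trimmed their reads, aligned them to mm9 with Bowtie and called bins enriched over input, and the deposited values are positions in bp without height or P-value. Tool versions and the way the libraries were combined are not given in the sources used here. Depth per library is unknown, and there is no replicate error.

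The list had 4791 rows for 3473 distinct regions, and each distinct region was counted once. What the repeated rows stand for, and whether some belong to CMs, is not given in the sources used here. Positions were compared with the mm9 genome (NCBIM37) and GENCODE M1 in Python 3.11.15 with numpy 2.4.6, pandas 2.3.3 and scipy 1.17.1, and drawn with matplotlib 3.10.9. Words were counted on both strands at the listed width and compared with sequence starting 5 kb to the right by exact McNemar tests (adjusted p under 0.05). Of these controls, 45 touched a gene or promoter, 1 overlapped a listed region and 1 held undetermined bases. The GATA words overlap each other, the short T-box word lies within the long one, and the HAND word matches the general E-box CANNTG, which was also counted. The MEF2, CArG, CTCF and REST patterns allow several bases at some positions. Further words were those of the SOX (ACAATGG), octamer (ATGCAAAT), forkhead (TGTTTAC), Wnt effector LEF/TCF (CTTTGAT), SMAD (GTCTAGAC), ETS family (CCGGAAGT) and NRF1 factors (GCATGCGC). Shares of regions were compared with shares of intergenic bases by exact binomial tests and between classes by Fisher's exact test. Wilson intervals at 95% and all floors (3 counts) cover counting error only.

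The genes named are those of 9 lists that flank a region, the nearest ahead of the others, the genes beside the stretches with most regions, the genes with most regions, and the 5 regions nearest to and farthest from a TSS, apart from results that are not reported here. Members, lists and motifs were chosen with earlier results of these data known. The split by CpG content and the RefSeq search, in which 32851 promoter sequences of RefSeq were matched by the 60 bases around the start, were added after the data were seen. Alternatives concerned gene sets, promoter reach, distances, control position, window width, word and CpG definition.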

Additional observations from a re-analysis of the deposited data

How the results depend on the processing

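No paired analysis was possible because positions are given for both libraries together, with no value per library, and for the same reason no library could be left out. The alternative restricted to regions outside repeats was not run, since the genome used does not mark repeats. Of 48 alternatives to 13 results, 10 of them added after the data were seen, 39 kept the direction and the side of the threshold or stayed within 1.5 times of the count. The excess of AGATAA over neighbouring sequence, 10.6 percentage points, turned to -4.94 points with the bare word GATA (p = 0.121, exact McNemar test) and to -12.1 points in the CpG-island-like regions alone, which were chosen by their GC content (median 73.2%) while their controls (47.6%) were not, so that this value is a description. It was 21.0 points in the other regions, and 12.1 points without regions at a RefSeq TSS. The median distance to a TSS, 25.8 kb, became 40.1 kb with protein-coding genes alone. The 758 flanking genes became 465 within 100 kb, 417 with a single nearest gene and 499 when a gene of any kind could flank. The 924 words of 6 bp that differed became 218 in regions that were not CpG-island-like. That count rests on the split made after the data were seen and is a description. The share of regions with another within 10 kb, 3.15%, became 8.76% within 50 kb and 13.03% within 100 kb, as it must with a wider limit. The number of regions ranged from 381, with promoters of 5 kb, to 521, with protein-coding genes alone, and was 398 when RefSeq starts were also counted as promoters. With 351 to 445 regions a class and positions alone, small differences between classes could not be seen.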
